A study of Homo sapiens with 21 samples.

Results

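Cadherins are calcium-dependent adhesion proteins of the cell surface. The group described here was taken by gene name from the deposited table of normalized counts: the numbered cadherins (CDH), the cadherin-related genes (CDHR), the non-clustered protocadherins (PCDH with a number), and the very large FAT, DCHS and CELSR cadherins. The rule found 38 genes among the 19874 features of that table, and all 38 were among the 19655 features tested. By structure they were 5 classical type I cadherins, 11 classical type II cadherins, 9 delta protocadherins, 8 giant cadherins and 5 others. The names match 48 features of the full count table. The other 10 (CDH9, CDH16, CDH17, CDH19, CDHR2, CDHR4, CDHR5, FAT2, PCDH12 and PCDH15) are not in the normalized table, and no library had more than 11 reads of any of them.

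Classical cadherins join neighbouring cells by binding the same cadherin on the opposite membrane, and their tails bind catenins, which link them to actin. Cells that carry different classical cadherins sort apart, and in the mouse forebrain Cdh6 (lateral ganglionic eminence, LGE) and Cdh4 (cortex) lie on opposite sides of the boundary between striatum and cortex. Delta protocadherins adhere weakly and act in cell sorting, axon growth and synapse formation, while FAT, DCHS and CELSR proteins orient cells within a sheet (planar polarity).

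RNA was sequenced from H9 (WA-09) human embryonic stem cells with the transgene TRE3G 2xFLAG-GSX2 WT, a doxycycline-controlled copy of GSX2, which is a homeobox regulator of the LGE. All 7 groups carry the transgene and were differentiated toward LGE-like progenitors through media with LDN193189, SB431542 and XAV939, then LDN193189 and SB431542, then IWP2 and Activin A. The Dox groups got 100 ng/mL doxycycline for 12 h from day 10 and were collected at 12 h, at 24 h and at 48 h, so the later ones follow its withdrawal. The NoDox groups were collected at the same times without doxycycline, and Day10 is the starting point. Each group has 3 replicates. Nothing in the labels says that these were separate cultures, so p-values measure the spread between these samples, which may be technical. Effects of the drug and of the transgene cannot be told apart, since no cells without the transgene received doxycycline, and the labels do not say whether the line is 1 clone.

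Libraries held 14.4 to 33.8 M counts, at which 3 reads, the limit that a count of 0 allows, equal 0.0886 to 0.208 reads per 1 M of the unscaled library total, for counting error only. Levels below are CPM, counts per 1 M of the library after TMM scaling. The transgene stood at 876 ± 114 CPM in 12 h Dox, 19.5 ± 5.80 in 24 h Dox and 0.934 ± 0.050 in 48 h Dox, against 0.135 to 0.279 CPM in the NoDox groups (means, n = 3). The 8 markers of pluripotent stem cells summed to 318 to 340.3 CPM at Day10. Of these, POU5F1, NANOG, TDGF1 and PRDM14 averaged below 0.5 CPM, while DPPA4 averaged 154.6, DNMT3B 88.4, LIN28A 82.5 and ZFP42 6.00 CPM. The 10 LGE markers summed to 325.7 to 360.5 CPM there, with none at 0. Replicate 3 of 12 h Dox and replicate 1 of Day10 stood apart from their groups, with low values for long transcripts, and their effect is given with the giant cadherins. Fold changes below are log2 values, Dox over NoDox or NoDox over Day10, ± an approximate standard error (n = 3 per group), and adjusted p-values come from edgeR's quasi-likelihood test over all 19655 features.

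Per kilobase of transcript, CDH2 (N-cadherin, the main cadherin of the neural tube) was the highest of the 38 genes in 6 of the 7 groups. At Day10 it had 54.0 ± 2.40 RPKM (CPM per kilobase of gene length, SD, n = 3), before CELSR2 at 40.6 ± 4.79, PCDH19 at 29.3 ± 2.38, FAT1 at 24.3 ± 5.94, DCHS1 at 20.3 ± 0.538 and CDH24 at 19.8 ± 1.25 RPKM. FAT1, DCHS1 and CDH24 lay within their replicate spread of each other. In 12 h Dox, CELSR2 at 31.3 ± 6.90 RPKM and CDH2 at 28.7 ± 1.88 RPKM lay within their spread. CDH11 was seventh at Day10, with 15.6 ± 0.524 RPKM, and was placed after CDH2 in 24 h Dox, with 38.7 ± 0.546 RPKM beside CELSR2 at 37.0 ± 1.33 RPKM. CDH1 (E-cadherin, the cadherin of epithelia and of pluripotent cells) had 0.030 ± 0.014 RPKM at Day10, and 23 of the 38 genes reached 1 RPKM there. Summed over the 38 genes, the level was 197 RPKM in 12 h Dox, against 324 RPKM in 12 h NoDox. The sum was 278 RPKM in 24 h Dox, against 308 RPKM in 24 h NoDox, and 297 RPKM in 48 h Dox, against 285 RPKM in 48 h NoDox.

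**Figure D1:**
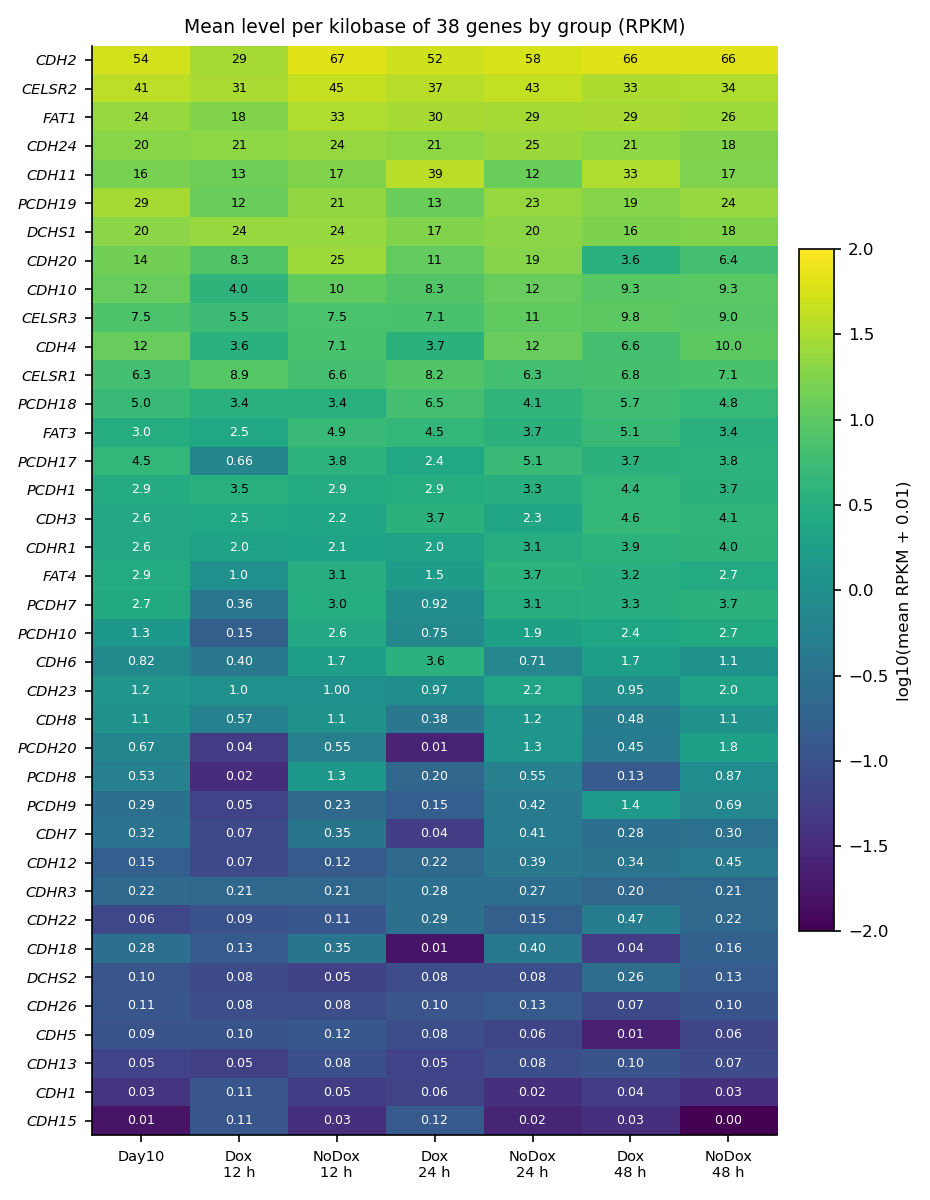
Mean RPKM (3 libraries) of the 38 genes, in rows ordered by their mean over the groups, in the 7 groups; colour is log10(RPKM + 0.01). CDH2 heads every column except 12 h Dox, where CELSR2 is at 31.3 and CDH2 at 28.7 RPKM.

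The first comparison asked which of these genes differed after 12 h of GSX2 induction. Of the 38, 3 rose and 23 fell, meaning higher or lower in Dox than in NoDox of the same time. Over all features tested 39.7% were called, 19.8% higher and 19.9% lower, and the median log2 fold change was -0.81 for the 38 genes and 0.01 for all. By at least 2-fold, 1 rose and 14 fell, where 5.56% and 4.73% of all features did. With doxycycline, 7 of 9 delta protocadherins and 8 of 11 type II cadherins fell, as did N-cadherin (CDH2), and CELSR1, PCDH1 and CDH15 rose. Scaled by library totals only, the median of all features was 0.19 and 7 of the 38 genes were higher and 21 lower. At 24 h, 7 rose and 20 fell, where 33.9% of all features were called, 17% higher and 16.9% lower. At 48 h, 8 rose and 9 fell, where 18.2% were called, 9.23% higher and 8.94% lower. In bulk RNA, fewer cells of a type and less RNA per cell cannot be told apart. Markers of neural progenitors also differed at 12 h: the summed level of 12 such genes was 3033 to 3402 CPM in Dox, against 7565 to 7595 CPM in NoDox, with 0 higher, 11 lower and none at 0. The 10 markers of postmitotic neurons summed to 920.4 to 1099 CPM in Dox, against 1667 to 1944 CPM in NoDox, with 1 higher and 9 lower. At 24 h they summed to 1432 to 1631 CPM in Dox, against 2026 to 2320 CPM in NoDox, with 1 higher and 8 lower. Of the 10 LGE markers, which include GSX2 itself, 1 rose and 8 fell at 12 h, and 2 rose and 7 fell at 24 h. The part of these levels in the cadherin results was not tested.

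**Figure D2:**
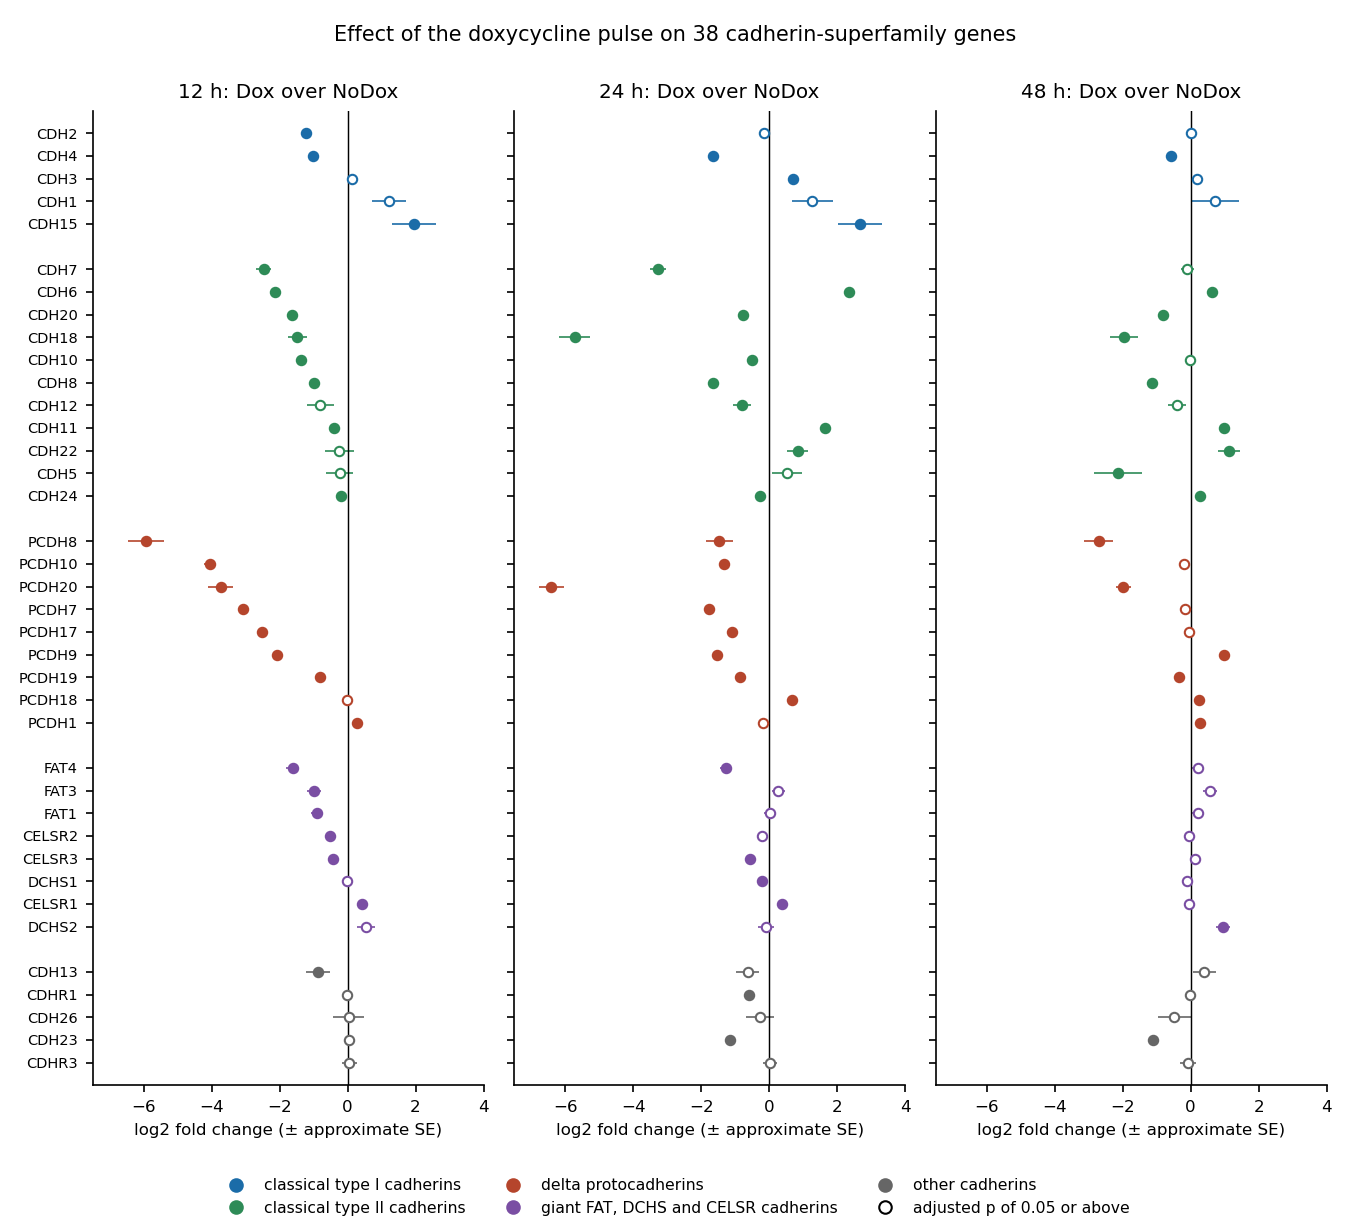
Log2 fold change ± approximate standard error of each gene, Dox over NoDox, at 12 h, 24 h and 48 h, by structural class; filled points had an adjusted p below 0.05, and CDH15 at 48 h, with 0 reads in NoDox, is not drawn. Most points lie left of 0 at 12 h (23 fell, 3 rose), CDH6 and CDH11 lie to the right at 24 h, and 21 of the 38 genes were not called at 48 h.

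Among type I cadherins, CDH2 (chromosome 18, 27932879 to 28177946, hg38) had 260.4, 249.5 and 229 CPM in 12 h Dox, against 579.6, 579.9 and 573 CPM in 12 h NoDox. The groups were far apart (-1.23 ± 0.06, adjusted p = 7.89e-16). At 24 h the values were 467, 438 and 441 CPM in Dox and 495, 496 and 508 CPM in NoDox. Each Dox library was below each NoDox library, and the difference lay at the threshold (-0.16 ± 0.06, adjusted p = 0.0504, or 0.0493 with the replicate number as a block). By 48 h the groups overlapped, at 569 ± 37.1 CPM in Dox and 564 ± 21.2 CPM in NoDox (0.01 ± 0.06).

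CDH4 (R-cadherin, chromosome 20, 61252261 to 61940617) had 27.6, 25.6 and 27.0 CPM in 12 h Dox, against 55.4, 52.7 and 52.5 CPM in 12 h NoDox (-1.0 ± 0.08, adjusted p = 7.76e-11). It remained lower at 24 h, with 32.2, 25.2 and 26.8 CPM in Dox, against 95.5, 87.8 and 80.7 CPM in NoDox (-1.65 ± 0.08, adjusted p = 1.27e-15). By 48 h it averaged 49.8 CPM in Dox and 75.0 CPM in NoDox (-0.59 ± 0.08, adjusted p = 6.67e-06). CDH4 was thus lower in every Dox library than in any NoDox library of the same time.

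CDH3 (P-cadherin, of epithelia) did not pass at 12 h (0.14 ± 0.11) and rose at 24 h, with 21.2, 24.7 and 25.1 CPM in Dox, against 14.3, 16.2 and 13.1 CPM in NoDox (0.70 ± 0.11, adjusted p = 4.35e-06). Epithelial markers also moved at 24 h, with 4 of 6 tested higher and a sum over 10 genes of 465.4 to 593 CPM in Dox, against 298.5 to 331.3 CPM in NoDox. KRT8 averaged 306 CPM in Dox and 164 CPM in NoDox and KRT18 averaged 125 CPM in Dox and 38.7 CPM in NoDox, while TP63, KRT5, KRT14 and GRHL2 averaged below 0.5 CPM in both groups. Their part in the CDH3 result was not tested. Without a stated strand setting its reads and those of CDH3-AS1, on the other strand, which had 19.1% as many counts, cannot be told apart. CDH1 stayed near the detection limit, with 48 reads in all of 12 h Dox and 18 in 12 h NoDox (1.22 ± 0.50, adjusted p = 0.0519). CDH15 (M-cadherin of muscle) was called higher at 12 h and 24 h from 37 and 40 reads in Dox, against 8 and 7 reads in NoDox. The 12 h call was lost without 12 h Dox replicate 2, 12 h NoDox replicate 1 or 12 h NoDox replicate 3.

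Of the 11 type II cadherins, 0 rose and 8 fell at 12 h (72.7% called, against 39.7% of all features). At 24 h 3 rose and 7 fell (90.9%, against 33.9%), and at 48 h 4 rose and 4 fell (72.7%, against 18.2%). CDH6 (K-cadherin, chromosome 5, 31193686 to 31329146) had 5.19, 4.54 and 5.05 CPM in 12 h Dox, against 24.7, 18.3 and 21.9 CPM in 12 h NoDox (-2.13 ± 0.14, adjusted p = 7.05e-13). At 24 h, after withdrawal, the order was reversed. It had 42.0, 48.0 and 45.0 CPM in Dox, against 9.21, 8.90 and 8.31 CPM in NoDox (2.35 ± 0.13, adjusted p = 1.23e-14). At 48 h it was still higher, with 15.9, 24.3 and 22.9 CPM in Dox, against 11.7, 14.6 and 14.5 CPM in NoDox (0.63 ± 0.13, adjusted p = 0.00105).

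CDH11 (OB-cadherin, chromosome 16, 64943753 to 65126112), which is common in mesenchyme and is also made in the developing brain, took the same course at a higher level. It had 183, 171 and 171 CPM in 12 h Dox, against 203, 241 and 241 CPM in 12 h NoDox (-0.38 ± 0.06, adjusted p = 1.14e-05). At 24 h it had 519, 515 and 505 CPM in Dox, against 156, 170.3 and 171 CPM in NoDox (1.63 ± 0.06, adjusted p = 3.97e-18). By 48 h it had 429, 447 and 448 CPM in Dox, against 225, 223 and 217 CPM in NoDox (0.99 ± 0.06, adjusted p = 6.11e-12). The groups did not overlap at any of the 3 times, and CDH6 and CDH11 were the 2 genes of the 38 that were called lower at 12 h and higher at both later times.

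Markers of mesenchyme and neural crest also moved at 24 h. The 8 mesenchymal genes summed to 919.6 to 1342 CPM in Dox, against 432 to 494.3 CPM in NoDox, mostly COL1A1 (1137 CPM in Dox and 426 CPM in NoDox). COL3A1, PDGFRA and LUM of the same list were lower, and TWIST1, PRRX1 and DCN averaged below 0.5 CPM in both groups, DCN at 0. The 8 neural crest genes summed to 757.5 to 899 CPM in Dox, against 593 to 625.8 CPM in NoDox, and 5 of the 5 tested rose, while FOXD3, PAX3 and TFAP2B averaged below 0.5 CPM. The part of such cells in the CDH6 and CDH11 values was not tested.

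Most other type II cadherins were lower in Dox. CDH8 (chromosome 16, 61647242 to 62037035) had 7.51, 7.81 and 7.90 CPM in 12 h Dox, against 16.3, 14 and 16 CPM in 12 h NoDox (-1.0 ± 0.13, adjusted p = 1.94e-07). It had 4.57, 5.35 and 5.38 CPM in 24 h Dox, against 14.1, 17.2 and 16.9 CPM in 24 h NoDox (-1.65 ± 0.13, adjusted p = 2.77e-11). At 48 h CDH8 was still lower, at 6.54 CPM in Dox and 14.6 CPM in NoDox (-1.15 ± 0.13, adjusted p = 4.23e-07).

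CDH7 (chromosome 18, 65750252 to 65890337) had 0.577, 0.652 and 0.633 CPM in 24 h Dox, against 6.03, 6.55 and 5.48 CPM in 24 h NoDox. That was a log2 fold change of -3.27 ± 0.23 (adjusted p = 1.50e-12), after -2.47 ± 0.21 at 12 h. At 48 h CDH7 overlapped between the groups, with 4.27, 4.09 and 3.70 CPM in Dox and 3.82, 4.80 and 4.29 CPM in NoDox (-0.10 ± 0.18). CDH18 (chromosome 5, 19471296 to 20575873) had 3 reads in all of 24 h Dox, against 205 in 24 h NoDox, which is 59.2-fold lower, with a 95% exact interval of 20 to 290 that covers counting error only. Its log2 fold change was -1.48 ± 0.28 at 12 h and -1.97 ± 0.41 at 48 h.

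CDH20, an abundant type II cadherin, averaged 35.4 CPM in 12 h Dox and 109 CPM in 12 h NoDox (-1.62 ± 0.09, adjusted p = 2.29e-15), and fell less at 24 h (-0.75 ± 0.08) and 48 h (-0.83 ± 0.10). CDH10 averaged 14.7 CPM in 12 h Dox and 38 CPM in 12 h NoDox (-1.37 ± 0.07) and was within its spread at 48 h (-0.01 ± 0.07). CDH24 changed little, and its fall at 12 h (-0.18 ± 0.07, adjusted p = 0.0428) was lost without 12 h Dox replicate 3 or 12 h NoDox replicate 2 or 3. CDH22 rose at 48 h from a low level, with 2.52, 2.28 and 2.18 CPM in Dox, against 1.49, 0.766 and 0.942 CPM in NoDox (1.13 ± 0.31, adjusted p = 0.0115). That call was lost without 48 h Dox replicate 1, 48 h NoDox replicate 2 or 48 h NoDox replicate 3. CDH22 was also called higher at 24 h, with 1.94, 1.48 and 0.814 CPM in Dox, against 1.11, 0.672 and 0.502 CPM in NoDox. The 24 h call was lost by the DESeq2 Wald test (adjusted p = 0.0533), by limma and with no filter. It was also lost without 24 h Dox replicate 1 or 2 or 24 h NoDox replicate 2 or 3. CDH12 fell at 24 h (-0.80 ± 0.27, adjusted p = 0.0230) and the call was lost without 24 h Dox replicate 2 or 3 or 24 h NoDox replicate 1.

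CDH5 (VE-cadherin, the cadherin of endothelium) averaged 0.482 CPM in 24 h Dox and 0.348 CPM in 24 h NoDox and did not pass (0.52 ± 0.45, adjusted p = 0.405). KDR, a receptor of endothelial cells, was in the same libraries at 37.9 CPM in Dox and 2.08 CPM in NoDox (4.21 ± 0.23). The 10 endothelial markers, KDR among them, summed to 42.4 to 52.9 CPM in 24 h Dox, against 9.91 to 10.5 CPM in 24 h NoDox. KDR made up most of the Dox sum. TIE1 averaged 4.33 CPM in Dox and 2.49 CPM in NoDox, and VWF averaged 1.29 CPM in Dox and 0.597 CPM in NoDox. TEK averaged 2.54 CPM in Dox and 2.26 CPM in NoDox, and CLDN5 averaged 1.53 CPM in Dox and 2.27 CPM in NoDox. Of the 6 tested, 3 rose and 0 fell, and 5 of the 10 averaged below 0.5 CPM in both groups. At 48 h CDH5 had 4 reads in Dox and 20 in NoDox, a call (-2.14 ± 0.72, adjusted p = 0.0357) that was lost without any 1 of the 3 Dox libraries and without NoDox replicate 2 or 3.

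**Figure D3:**
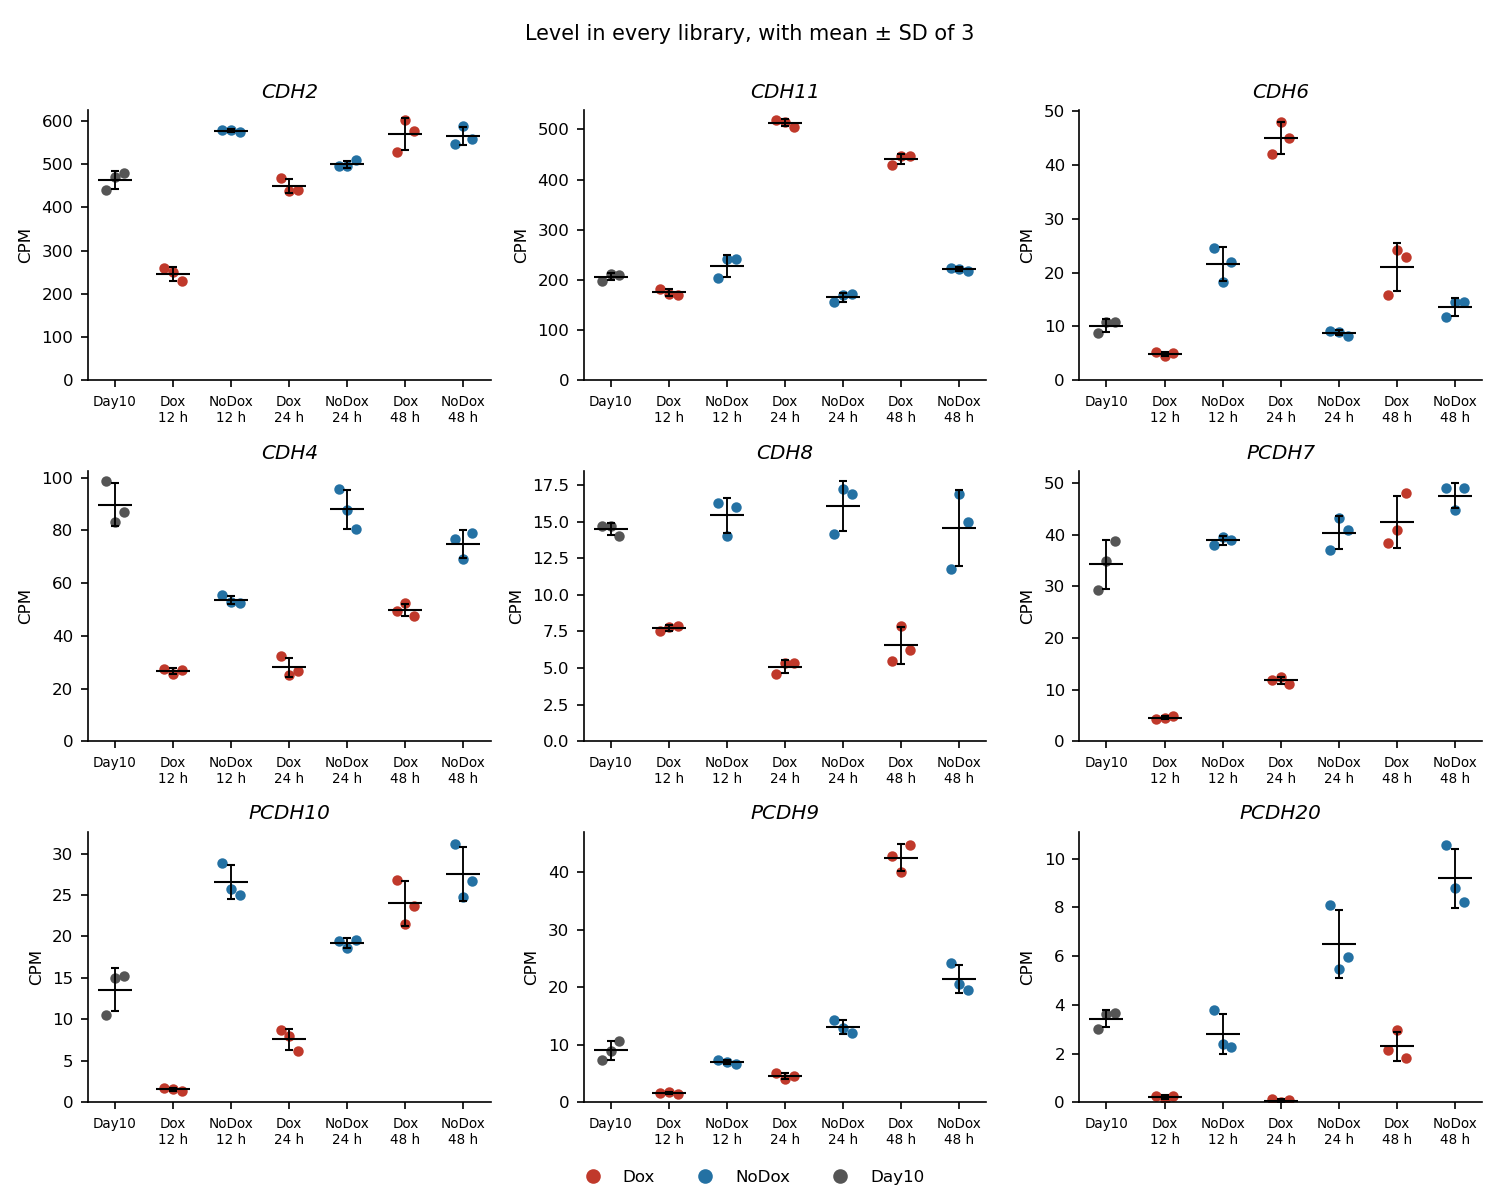
CPM of 9 genes in each of the 21 libraries (points), with group mean and SD (bars, n = 3), Dox left of NoDox at each time. CDH11 and CDH6 are highest in 24 h Dox, at 513 and 45.0 CPM on average, PCDH7 and PCDH10 are lowest in 12 h Dox, and PCDH9 is highest in 48 h Dox, at 42.5 CPM.

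The 9 delta protocadherins held the 5 largest decreases at 12 h. At that time 1 rose and 7 fell (88.9% called, against 39.7% of all features), with a median of -2.51, and 6 of the 7 fell by at least 2-fold. At 24 h 1 rose and 7 fell (88.9%, against 33.9%), with a median of -1.33. At 48 h 3 rose and 3 fell (66.7%, against 18.2%), with a median of -0.17.

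Promoter sequence is shown here for PCDH7, PCDH8 and PCDH1. At 12 h PCDH7 and PCDH8 had log2 fold changes of -3.08 ± 0.11 and -5.93 ± 0.52, that of PCDH8 from 4, 1 and 3 reads in Dox. PCDH1 was the delta protocadherin that rose, a call lost without 12 h Dox replicate 1 or 12 h NoDox replicate 3. Each line gives the 250 bases before the RefSeq start site (GRCh38.p14), 5′ to 3′ on the gene's strand. The PCDH1 start site is an internal one, within the annotated gene (141853090 to 141879246, minus strand), while those of PCDH7 and PCDH8 are at the annotated 5′ ends. Capitals mark TAATTA, a core that homeodomain proteins can bind, and CACCTG or its reverse complement CAGGTG, an E-box.
PCDH1, chr5:141869628-141869877, minus strand: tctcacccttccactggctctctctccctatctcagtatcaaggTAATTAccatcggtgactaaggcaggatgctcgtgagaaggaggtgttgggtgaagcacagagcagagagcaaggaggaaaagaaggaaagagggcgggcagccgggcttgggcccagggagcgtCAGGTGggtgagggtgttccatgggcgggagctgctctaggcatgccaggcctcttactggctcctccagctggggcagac
PCDH7, chr4:30720119-30720368, plus strand: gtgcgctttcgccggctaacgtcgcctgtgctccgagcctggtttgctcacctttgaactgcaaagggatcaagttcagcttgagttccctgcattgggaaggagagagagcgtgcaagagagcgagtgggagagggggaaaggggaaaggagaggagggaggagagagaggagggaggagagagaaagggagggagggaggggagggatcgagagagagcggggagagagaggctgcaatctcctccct
PCDH8, chr13:52848641-52848890, minus strand: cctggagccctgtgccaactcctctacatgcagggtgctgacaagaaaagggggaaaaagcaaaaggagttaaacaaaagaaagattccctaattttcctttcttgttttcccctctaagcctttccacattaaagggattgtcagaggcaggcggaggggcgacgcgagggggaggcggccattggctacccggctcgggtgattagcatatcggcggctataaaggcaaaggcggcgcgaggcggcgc
In the PCDH1 line TAATTA begins 206 bases and CAGGTG 81 bases before the start site (-206 and -81), and neither motif is in the PCDH7 and PCDH8 lines. RefSeq windows of 300 bases, from 250 before to 50 after a start site, were found for 23 of the 38 genes, 35 windows in all. Searched on both strands, TAATTA, which is its own reverse complement, was in 1 window (2.86%), that of PCDH1. CACCTG was in 3 (8.57%), 1 each of CDH4, CDH23 and PCDH1. All 3 of these are at internal start sites, within the annotated genes, and the CDH23 window at the annotated 5′ end had neither motif. Over all 35116 such windows the shares were 4.84% and 20.6%. These letters describe the windows only.

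PCDH8 had 0.143, 0.0385 and 0.153 CPM in 12 h Dox, against 4.94, 6.95 and 8.92 CPM in 12 h NoDox (adjusted p = 6.58e-09). These Dox values are 4, 1 and 3 reads, so the size of the fall, and of the shift from 12 h to 24 h, is uncertain. In rodents this gene is known as arcadlin, a synaptic protocadherin. It stayed lower at 24 h, with 0.865, 0.957 and 1.22 CPM in Dox, against 2.30, 3.69 and 2.47 CPM in NoDox (-1.46 ± 0.39, adjusted p = 0.00532). At 48 h it had 0.548, 1.01 and 0.485 CPM in Dox, against 1.96, 5.46 and 6.07 CPM in NoDox (-2.70 ± 0.43, adjusted p = 0.000122). No Dox library reached a NoDox library of its own time.

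PCDH10 (chromosome 4, 133149294 to 133208606), which striatal axons need for their growth in mice, had 1.72, 1.62 and 1.38 CPM in 12 h Dox, against 28.8, 25.7 and 25.0 CPM in 12 h NoDox (-4.06 ± 0.16, adjusted p = 1.53e-18). At 24 h it had 8.69, 7.96 and 6.19 CPM in Dox, against 19.4, 18.6 and 19.6 CPM in NoDox (-1.33 ± 0.13). The groups overlapped at 48 h (-0.20 ± 0.12, adjusted p = 0.253). PCDH7 (chromosome 4, 30720369 to 31146805) had 4.40, 4.54 and 4.84 CPM in 12 h Dox, against 38, 39.6 and 39.0 CPM in 12 h NoDox (adjusted p = 1.18e-19). It too was lower at 24 h, with 11.8, 12.4 and 11.2 CPM in Dox, against 37.0, 43.2 and 40.9 CPM in NoDox (-1.77 ± 0.10), and overlapped at 48 h (-0.17 ± 0.09, adjusted p = 0.200). PCDH17 (chromosome 13, 57631744 to 57729311), a protein of synapses in mouse cortex and basal ganglia, had the same order of values. It averaged 5.55 CPM in 12 h Dox and 31.8 CPM in 12 h NoDox (-2.51 ± 0.11), 20.3 CPM in 24 h Dox and 42.9 CPM in 24 h NoDox (-1.08 ± 0.09), and 30.9 CPM in 48 h Dox and 32.2 CPM in 48 h NoDox (-0.06 ± 0.09).

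PCDH20 (chromosome 13, 61409685 to 61415849) was lower throughout. It had 0.250, 0.115 and 0.255 CPM in 12 h Dox, against 3.77, 2.38 and 2.29 CPM in 12 h NoDox (-3.73 ± 0.36). At 24 h it had 0.124, 0 and 0.0904 CPM in Dox, against 8.10, 5.46 and 5.98 CPM in NoDox (-6.40 ± 0.38, adjusted p = 5.33e-14). The Dox values are 7, 3 and 5 reads at 12 h and 3, 0 and 2 reads at 24 h. The sizes of these falls, and of the shifts to and from 24 h, are therefore uncertain. By 48 h it had 2.14, 2.97 and 1.82 CPM in Dox, against 10.6, 8.78 and 8.21 CPM in NoDox (-1.98 ± 0.21, adjusted p = 1.14e-07). PCDH20 shares 4659 of its 5105 exonic bases with another annotated feature of the same strand, which had 1576 reads over all libraries beside 1598 for PCDH20, so its reads are shared with that feature and its level is uncertain.

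PCDH9 (chromosome 13, 66302834 to 67230445) crossed from lower to higher. It had 1.65, 1.81 and 1.53 CPM in 12 h Dox, against 7.44, 7.04 and 6.73 CPM in 12 h NoDox (-2.08 ± 0.16, adjusted p = 1.00e-11). At 24 h it had 5.11, 4.00 and 4.61 CPM in Dox, against 14.3, 12.8 and 12.1 CPM in NoDox (-1.52 ± 0.13, adjusted p = 6.41e-11). At 48 h it had 42.8, 40.1 and 44.7 CPM in Dox, against 24.3, 20.5 and 19.6 CPM in NoDox (0.99 ± 0.10, adjusted p = 6.65e-08). None of these 3 pairs of groups overlapped. PCDH9 and CDH24 were the 2 genes lower at 12 h and 24 h and higher at 48 h, and the rise of CDH24 at 48 h was lost without 48 h Dox replicate 1 or 48 h NoDox replicate 2.

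PCDH19, the highest delta protocadherin, is X-linked, and variants in it cause epilepsy. It averaged 118 CPM in 12 h Dox and 209 CPM in 12 h NoDox (-0.82 ± 0.08), 122 CPM in 24 h Dox and 223 CPM in 24 h NoDox (-0.87 ± 0.08), and 184 CPM in 48 h Dox and 235 CPM in 48 h NoDox (-0.36 ± 0.08). PCDH18 was within its spread at 12 h and rose at 24 h, with 44.4, 41.6 and 43.7 CPM in Dox, against 25.9, 28.1 and 27.8 CPM in NoDox (0.67 ± 0.07, adjusted p = 1.57e-08). PCDH1 changed little. Its rises at 12 h (0.28 ± 0.10, adjusted p = 0.0260) and 48 h (0.28 ± 0.10, adjusted p = 0.0477) were lost without single replicates, at 12 h Dox replicate 1 or NoDox replicate 3, and at 48 h Dox replicate 1 or 3 or NoDox replicate 2 or 3. The PCDH18 rise at 48 h (0.23 ± 0.07, adjusted p = 0.0285) was lost without Dox replicate 2 or 3 or NoDox replicate 3.

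The giant cadherins are coded by long transcripts, and 2 libraries were low for these. Residuals are log2 deviations from the group mean, the library itself included. Replicate 3 of 12 h Dox had a median residual of -0.11 over 2205 genes of at least 10000 bases and 0.16 over 1069 genes under 2000 bases. Day10 replicate 1 had -0.11 and 0.17. The median residual of 7 giant cadherins was -0.39 and -0.20 in the same libraries. Values without 12 h Dox replicate 3 are given beside the results at 12 h.

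**Figure D4:**
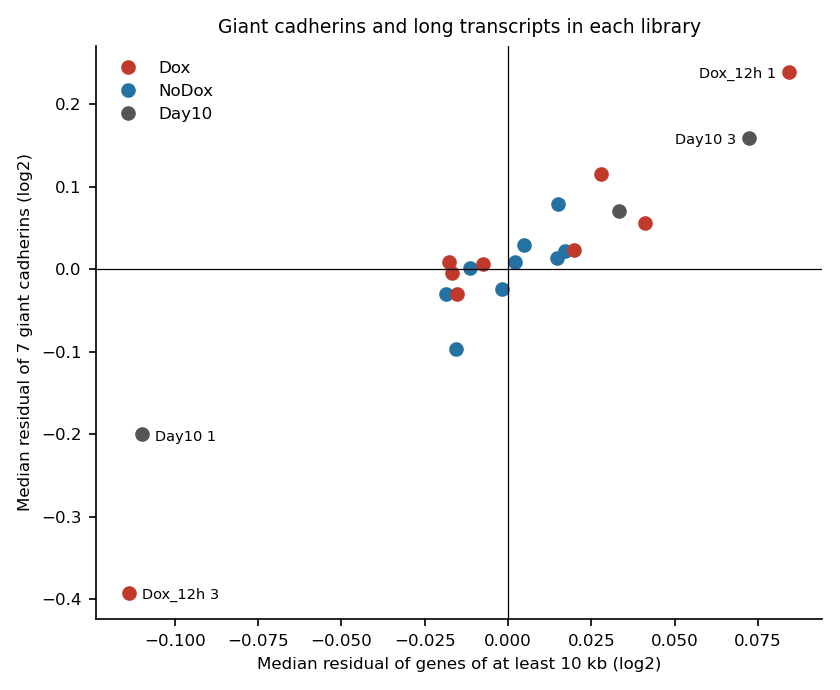
Median log2 residual from the group mean of 7 giant cadherins (y) against that of 2205 genes of at least 10 kb (x) in the 21 libraries, as a description. Replicate 3 of 12 h Dox (-0.39) and replicate 1 of Day10 (-0.20) lie lowest on both axes.

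At 12 h, 1 of the 8 giant cadherins rose and 5 fell, where 19.8% of all features were higher and 19.9% lower. FAT4 (chromosome 4, 125314918 to 125492932), which pairs with DCHS1 across cell borders, had 26.0, 24.0 and 14.5 CPM in 12 h Dox, against 69.8, 58.6 and 71.7 CPM in 12 h NoDox (-1.61 ± 0.18, adjusted p = 1.46e-06, or -1.41 without Dox replicate 3). At 24 h it had 36.9, 33.4 and 27.4 CPM in Dox, against 78.5, 73.1 and 81.9 CPM in NoDox (-1.26 ± 0.18, adjusted p = 2.18e-05), and at 48 h the groups overlapped (0.21 ± 0.17). Its partner DCHS1 was within its spread at 12 h, with 266, 269.9 and 251 CPM in Dox and 258, 276 and 256 CPM in NoDox (-0.01 ± 0.06, adjusted p = 0.949, or 0.02 without Dox replicate 3). DCHS1 fell a little at 24 h (-0.21 ± 0.06, adjusted p = 0.00426).

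FAT1 averaged 284 CPM in 12 h Dox and 530.3 CPM in 12 h NoDox (-0.90 ± 0.17, adjusted p = 0.000339, or -0.72 without Dox replicate 3). FAT3 averaged 48.4 CPM in 12 h Dox and 96.2 CPM in 12 h NoDox (-0.98 ± 0.20, adjusted p = 0.00117, or -0.74 without it). Both did not pass at 24 h and 48 h. At 48 h each FAT3 Dox library was above each NoDox library, with 89.2, 100.1 and 110.6 CPM in Dox, against 73.3, 62.4 and 64.8 CPM in NoDox (0.58, adjusted p = 0.0621). FAT3 was called higher at 48 h by the DESeq2 Wald test (adjusted p = 0.0322). With only the groups compared in the fit, FAT3 was called higher at 24 h and 48 h and FAT1 at 48 h. The planar polarity cadherins CELSR1, CELSR2 and CELSR3 did not move together. CELSR1 rose at 12 h, with 158, 149 and 119 CPM in Dox, against 107, 104 and 107 CPM in NoDox (0.43 ± 0.08, adjusted p = 0.000171, or 0.54 without Dox replicate 3). It rose at 24 h also, at 131 CPM in Dox and 100.9 CPM in NoDox (0.38 ± 0.08). CELSR2 fell at 12 h (-0.53 ± 0.11, or -0.35 without Dox replicate 3), as did CELSR3 (-0.44 ± 0.09, or -0.31 without it), and CELSR3 fell at 24 h (-0.57 ± 0.09). DCHS2 rose at 48 h, with 4.27, 4.25 and 4.30 CPM in Dox, against 2.55, 1.89 and 2.25 CPM in NoDox (0.94 ± 0.20, adjusted p = 0.00155). A feature on the other strand that overlaps its exons had 44.5% as many reads, and these cannot be told apart from those of DCHS2 without a strand setting.

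Among the other cadherins, CDH23 (chromosome 10, 71396920 to 71815947), known from the tip links of hair cells, was within its spread at 12 h (0.05 ± 0.13). The 12 h values were 21.6, 19.2 and 16.2 CPM in Dox and 18.3, 16.9 and 20.4 CPM in NoDox. CDH23 was lower in Dox at 24 h, with 18.6, 17.7 and 17.9 CPM, against 47.7, 33.9 and 39.2 CPM in NoDox (-1.16 ± 0.12, adjusted p = 3.25e-08). Between these times the NoDox values were the ones that moved. At 48 h it had 16.1, 19.2 and 17.5 CPM in Dox, against 39.9, 31.0 and 42.4 CPM in NoDox (-1.10 ± 0.13, adjusted p = 9.56e-07). At Day10 CDH23 averaged 22.5 CPM. C10orf105, which overlaps CDH23 on the other strand, had 16.9% as many reads. CDHR1, a photoreceptor cadherin, fell at 24 h (-0.59 ± 0.12). CDH13, which lacks a cytoplasmic tail, was called lower at 12 h from 37 reads in Dox and 60 in NoDox (adjusted p = 0.0483), and the call was lost without any 1 of those 6 libraries. CDH26 and CDHR3 passed at no time.

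Across the 3 times, 7 genes were lower at each (CDH4, CDH8, CDH18, CDH20, PCDH8, PCDH19 and PCDH20). Another 7 were lower at 12 h and 24 h and not called at 48 h (CDH7, CDH10, PCDH7, PCDH10, PCDH17, CELSR3 and FAT4), and 5 were called lower at 12 h and at neither later time (CDH2, CDH13, CELSR2, FAT1 and FAT3). Of these, CDH2 was called lower at 24 h too with the replicate block (adjusted p = 0.0493) and in 5 other of its 13 alternatives. The difference between the effects was tested in the same model. From 12 h to 24 h the Dox effect moved up for 14 of the 38 genes and down for 7 (30.9% of all features called, 16.1% up and 14.8% down). The largest shifts up at a mean of 2 CPM were those of CDH6 (4.48 ± 0.19), PCDH8 (4.46 ± 0.76), PCDH10 (2.72 ± 0.21), CDH11 (2.02 ± 0.09) and PCDH17 (1.43 ± 0.14). CDH2 moved up by 1.07 ± 0.09. PCDH20 (-2.67 ± 0.79) and CDH23 (-1.21 ± 0.18) moved down.

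From 24 h to 48 h the effect moved up for 16 genes and down for 6 (25.8% of all features called, 12.7% up and 13.1% down). PCDH20 (4.42 ± 0.54), CDH7 (3.17 ± 0.30), PCDH9 (2.51 ± 0.16), PCDH7 (1.60 ± 0.13) and FAT4 (1.47 ± 0.25) moved up, and CDH6 moved down (-1.72 ± 0.18). CDH8 and CDH23 were not called different between these times (0.50 ± 0.19, adjusted p = 0.0508, and 0.06 ± 0.18, adjusted p = 0.840). With the replicate number as a block CDH8 passed (adjusted p = 0.0344), and PCDH8 was called down (-1.17, adjusted p = 0.0469).

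Without doxycycline the genes changed with time as well. At 12 h, 8 of the 38 were higher and 8 lower than at Day10, where 31.8% of all features were called, 15.5% higher and 16.3% lower. At 24 h, 9 were higher and 3 lower, where 17.3% were called, 8.84% higher and 8.47% lower. At 48 h, 13 were higher and 7 lower, where 41.7% were called, 21.4% higher and 20.2% lower. The Day10 libraries serve all 3 comparisons. The largest increases at 12 h were those of PCDH8, with 4.94, 6.95 and 8.92 CPM in NoDox, against 1.69, 3.57 and 3.01 CPM at Day10 (1.29 ± 0.31), and CDH6, at 21.6 CPM in NoDox and 10.2 CPM at Day10 (1.08 ± 0.13). FAT3 was also higher (0.71 ± 0.20, adjusted p = 0.0146), and this was lost without Day10 replicate 1 (0.55, adjusted p = 0.0674). Leaving out Day10 replicate 2 or 3 or 12 h NoDox replicate 2 or 3 gave 4 or 5 genes lower at 12 h.

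At 48 h the delta protocadherins were mostly higher without doxycycline, with 5 of 9 up and 2 down. PCDH9 had 24.3, 20.5 and 19.6 CPM in NoDox, against 7.33, 8.98 and 10.7 CPM at Day10 (1.23 ± 0.12, adjusted p = 1.87e-09). PCDH20 averaged 9.19 CPM in NoDox and 3.44 CPM at Day10 (1.40 ± 0.20), and PCDH10 averaged 27.5 CPM in NoDox and 13.6 CPM at Day10 (1.00 ± 0.12). CDH12 rose to 2.53 CPM in 48 h NoDox, against 0.843 CPM at Day10 (1.60 ± 0.30). CDH20 first rose at 12 h (0.84 ± 0.08) and had fallen at 48 h, with 23.8, 29.6 and 29.1 CPM in NoDox, against 60.2, 58.5 and 63.8 CPM at Day10 (-1.15 ± 0.09, adjusted p = 9.12e-11). Markers of postmitotic neurons summed to 1972 to 2347 CPM in 48 h NoDox, against 1475 to 1516 CPM at Day10, and their part in these values was not tested.

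Genes that work with cadherins were described from lists of partners. Over all features 39.7% were called at 12 h, 33.9% at 24 h and 18.2% at 48 h. Of 14 catenins and other armadillo partners tested, 2 rose and 9 fell at 12 h (78.6% called), 4 rose and 2 fell at 24 h (42.9%), and 4 rose and 3 fell at 48 h (50%). CTNNBIP1, an inhibitor of beta-catenin, fell at 12 h (-0.71 ± 0.06) and rose at 24 h (0.56 ± 0.06) and 48 h (0.83 ± 0.06). CTNND2, a brain catenin of the p120 family, fell at 24 h (-0.91 ± 0.09). Of 14 planar polarity and FAT-DCHS partners, 1 rose and 6 fell at 12 h (50% called), and 2 rose and 1 fell at 24 h (21.4%, below the share of all features). FJX1, whose fly relative four-jointed phosphorylates Fat and Dachsous, had a mean of 20.5 CPM in 12 h Dox and 57.7 CPM in 12 h NoDox (-1.50 ± 0.07). At 24 h FJX1 had 115 CPM in Dox and 41.5 CPM in NoDox (1.46 ± 0.06), the same change of sign as for CDH6 and CDH11.

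Of 9 regulators of CDH1 tested, 3 rose and 5 fell at 12 h (88.9% called), and 3 rose and 1 fell at 24 h (44.4%). GRHL3, an epithelial factor, reached 7.88 CPM in 24 h Dox, against 0.859 CPM in 24 h NoDox (3.20 ± 0.24), while ZEB2, a repressor of CDH1, rose in the same libraries (0.44 ± 0.11). Of 15 tight and adherens junction scaffolds, 6 rose and 4 fell at 12 h (66.7% called). NECTIN3, an adhesion protein of adherens junctions, fell (-1.26 ± 0.07), and TJP3 (1.19 ± 0.14) and EPCAM (0.89 ± 0.19) rose. All 4 desmosomal genes tested fell at 12 h, DSP (-0.48 ± 0.11) the most, and DSG2 and DSC2 fell at 24 h too. Among 12 genes of cadherin shedding and turnover, 2 rose and 1 fell at 12 h (25% called, below the share of all features), and 2 rose and 3 fell at 24 h (41.7%), with PSEN2 (0.75 ± 0.14) up and ADAM9 (-0.49 ± 0.07) down.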

How the data were processed

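RNA was measured in 21 polyA libraries of 1 transgenic H9 line, in 7 groups of 3 taken from the labels. The deposited table of raw counts gives whole reads for each annotated gene. The submitters' processing notes name STAR (2.7.9), Subread (2.0.3) and the build hg38, without their settings, and neither the annotation nor the strandedness of counting was stated. The deposited normalized table (signal: counts over 1 factor per sample, with DESeq2 named by the authors in those notes) holds the features with at least 10 counts in at least 3 libraries. It gave the members and 1 alternative, log2(value + 1) tested with limma 3.58.1. Members, lists and the naming rule were chosen with earlier results of these data known.

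Counts were tested with edgeR 4.0.16 (R 4.3.3): TMM, filterByExpr, robust quasi-likelihood F test on all 7 groups without a block, 14 residual degrees of freedom, Benjamini-Hochberg adjustment over 19655 features (99.92% of counts), threshold 0.05. Members were named where they averaged 2 CPM or more and changed by a log2 of 1 or more, up to 12 in each direction (5 for a difference between times, over the mean of its groups), and up to 3 genes of each partner list; others are named with their values. The ± of a fold change is its size over the square root of F. RPKM uses the deposited gene lengths. Counts of 19655 genes were simulated with the fitted dispersions, and 19455 genes were left unchanged. The 12 h comparison recovered 100% of 100 genes of at least 2 CPM changed by a log2 of 1, with 5 false calls. The difference between 24 h and 12 h recovered 96% of such genes, with 9 false calls. The simulation had no outlying library and far fewer changed genes than the data, so it does not cover those conditions or genes below 2 CPM.

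Whether equal replicate numbers pair libraries was checked from the correlation of their deviations from the group means. Over 12805 genes of at least 5 CPM the correlations at 24 h were 0.245, 0.112 and 0.102. They were 0.0944, 0.0789 and -0.117 at 12 h, and 0.267, 0.187 and 0.0568 at 48 h. All 3 passed 0.1 at 24 h and at neither other time, so the block fit is given at 24 h where it changes a call. A cut of 0.1 does not settle whether libraries were paired at 24 h or at 48 h. Over all tested genes the 24 h correlations were 0.0616, 0.0359 and 0.0312. Alternatives were other scalings and filters, DESeq2 1.42.0, only the groups compared, the block and each library left out. Leaving out 12 h Dox replicate 3 together with Day10 replicate 1 was chosen after seeing the data. Replicates differed beyond sampling noise (chi-square per degree of freedom 1.87 to 28.0). Sequences are from RefSeq, and protein sequences were not analysed here.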

Additional observations from a re-analysis of the deposited data

Results flagged for a closer look

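The Dox effect differed between times by the test of the difference itself (edgeR, log2 scale). Between 24 h and 12 h the difference was 4.48 for CDH6, 4.46 for PCDH8, 2.72 for PCDH10, 2.02 for CDH11 and 1.43 for PCDH17, and -2.67 for PCDH20 and -1.21 for CDH23. For CDH6 and CDH11 every Dox library was below every NoDox library at 12 h and above every NoDox library at 24 h. Between 48 h and 24 h the difference was 4.42 for PCDH20, 3.17 for CDH7, 2.51 for PCDH9, 1.60 for PCDH7 and 1.47 for FAT4, and -1.72 for CDH6. PCDH8 had 4, 1 and 3 reads in 12 h Dox, and PCDH20 had 3, 0 and 2 in 24 h Dox. The sizes of their differences are therefore uncertain. PCDH9 was below NoDox in all 24 h Dox libraries and above it in all 48 h Dox libraries.

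Reads of genes outside the normalized table stood out for FAT2 and PCDH12, which were higher in Dox at 24 h, and for CDH19, which was lower. FAT2 had 19 reads in Dox and 6 in NoDox, a ratio of 3.65 with a 95% exact interval of 1.40 to 11.2. PCDH12, a protocadherin of endothelial cells, had 12 reads in Dox and 2 in NoDox, a ratio of 6.92 with an interval of 1.54 to 63.7. CDH19 had 0 reads in 24 h Dox and 9 in 24 h NoDox, which allows a ratio of up to 0.585, and 2 reads in 12 h Dox and 9 in 12 h NoDox, a ratio of 0.194 with an interval of 0.0204 to 0.937. The intervals cover counting error only, and these 3 genes were picked out of 10 by this difference.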

How the results depend on the processing

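Of 4580 recomputed values (38 genes, 8 comparisons), 4373 kept their side of the threshold, 135 lost a call, 71 gained one and 1 changed sign with a call. Some values that were called in neither fit changed sign near 0, such as CELSR1 at 12 h without doxycycline (0.05, or -0.05 without Day10 replicate 1). That one was DCHS1 at 12 h, 0.17 (adjusted p = 0.0129) when scaled by library totals only, against -0.01 with TMM. Library totals moved the 12 h median of all features from 0.01 to 0.19 and gave 7 genes higher at 12 h and 5 at 48 h, where TMM gave 3 and 8. Over all features they moved the share of calls that were higher to 76.8% at 12 h and 26.4% at 48 h, where TMM gave 49.9% and 50.8%. Leaving out 1 library gave 4 to 7 genes lower at 12 h without doxycycline (8 with all) and 5 to 8 higher at 48 h with it, the 5 without Dox replicate 1, NoDox replicate 2 or NoDox replicate 3. The replicate block gave 7 higher and 21 lower at 24 h, where the fit without it gave 7 and 20, the gain being CDH2. In the other comparisons of Dox and NoDox it gave 3 and 22 at 12 h, without CDH13, and 8 and 9 at 48 h. The causes were not tested. Depth limits CDH1, CDH5, CDH13, CDH15, CDH22 and CDH26, which had 125 reads or fewer in each group of 3 libraries.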
